A study of Mus musculus and Canis lupus familiaris and Equus caballus with 9 samples.

Results

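The genes described here encode subunits of the glycine receptor and the GABA-A receptor, the chloride channels of fast inhibitory transmission. They are 8 mouse genes given as a list by name: the glycine receptor genes Glra1, Glra2, Glra3 and Glrb, and the GABA-A receptor genes Gabrb1, Gabrb2, Gabrg1 and Gabrg3. They stand among 21887 protein-coding genes of the mouse chromosomes, and all 8 were found in the gene table. Each was examined for peaks of NRSF, also called REST, in RAW264.7, an established macrophage cell line of BALB/c mouse origin. The mouse arm of the study consisted of 2 samples immunoprecipitated with an NRSF monoclonal antibody and 1 input DNA sample, all without any named treatment and at passages 13 to 15. Cells had been fixed with 1% formaldehyde. One list of 2357 peaks, each 400 bp wide, is tied by the labels to both immunoprecipitated samples. Dog and horse cells were also assayed, and a human list is present too, but without gene positions for those species these lists were not used here. Peak positions alone do not allow the labelled cell type to be checked against markers.

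NRSF is a zinc-finger repressor that recognises a long bipartite DNA element, known as RE1 or NRSE, and recruits corepressors that keep many neuronal genes silent in other cell types. Glycine receptors are pentamers of alpha subunits and the beta subunit, which also anchors the receptor to the scaffold protein gephyrin. They dominate inhibition in spinal cord and brainstem. GABA-A receptors are pentamers of alpha and beta subunits, usually joined by a gamma subunit that contributes to the benzodiazepine site and to synaptic anchoring, and they carry most fast inhibition in the brain. The peaks here come from a macrophage line, which is not neuronal. No expression values were used, so whether NRSF keeps any of these genes silent in it was not tested.

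A peak was assigned to a gene when its midpoint lay inside the annotated gene span or within 10 kb of either end. Of the 8 genes, 2 had a peak by this rule, Glra1 and Glra3, both of them alpha subunits of the glycine receptor. Across all protein-coding genes, 1640 of 21887 had a peak (7.49%, exact 95% interval 7.15 to 7.85%, which covers counting error only). None of the 4 GABA-A genes had one. With 1 list for both samples and no score, height or p-value per peak, no replicate error can be given for any distance or count, and the read depth is unknown. Positions in the list may count from 0 or from 1, an uncertainty of 1 bp. Below and above, lower and upper refer to lower and higher chromosome coordinates.

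**Figure D1:**
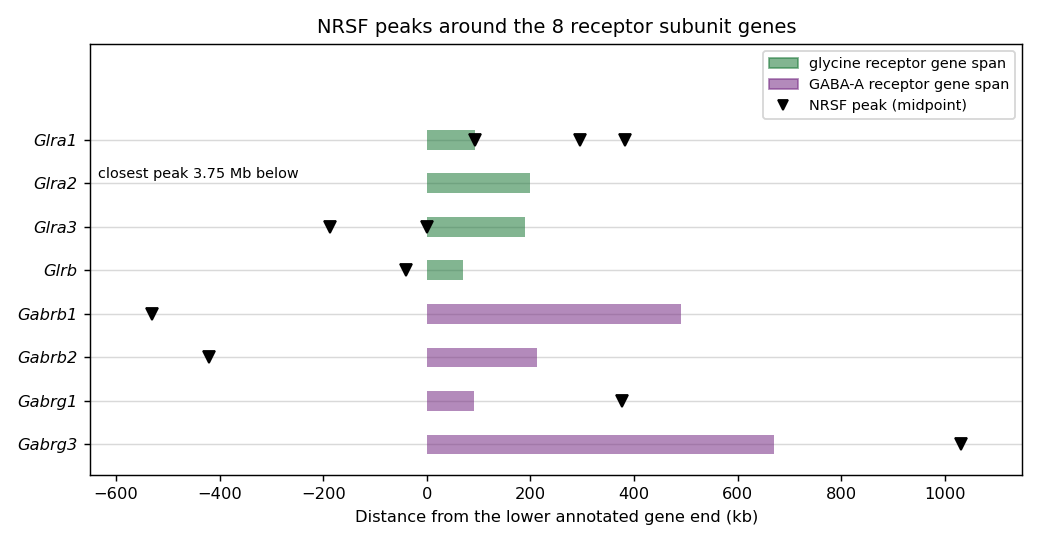
Spans of the 8 genes (bars, green for glycine and purple for GABA-A receptor genes), each drawn from its lower annotated end at 0, with the midpoints of all NRSF peaks in the drawn window (triangles); the x axis is in kb. Peaks fall within the Glra1 and Glra3 spans, at the upper and the lower end, while each of the 4 GABA-A spans is free of peaks and has its closest peak 285 to 530 kb away.

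Glra1 encodes the alpha subunit that predominates in adult spinal glycine receptors. Its span on chromosome 11 runs from 55514239 to 55608198 (mm10) and is 94.0 kb long. The peak at chr11:55607745-55608145 lay entirely inside the gene, with its midpoint 253 bp and its nearer edge 53 bp from the upper annotated end. This was the only peak within 100 kb of the gene. The next peaks were 203 and 290 kb above it, in stretches outside any protein-coding gene. There were 4 peaks within 1 Mb of the span, more than for any other of the 8 genes. The strand of Glra1 was not used here, so this end is given as an annotated end and not as a start.

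Glra3 encodes an alpha subunit found in spinal cord circuits of pain processing. Its span on chromosome 8 runs from 55940418 to 56130070 and is 190 kb long. The peak at chr8:55940575-55940975 lay inside the gene at its lower end. Glra3 is on the plus strand with 1 annotated start, and the peak midpoint was 357 bp downstream of it. The peak edge nearest to the start was 157 bp away from it. The next closest peak was 186 kb below the gene, in a stretch outside any protein-coding gene. Glra1 and Glra3 thus had the same arrangement, 1 peak in the span and within 1 kb of an annotated end. Among the 1640 protein-coding genes with a peak in reach, 345 had a midpoint that close to an end, inside or outside the span. These 345 are 1.58% of all 21887 protein-coding genes. In the class of 100 to 200 kb, to which Glra3 belongs, the share was 1.32%, and in that of 20 to 100 kb, to which Glra1 belongs, it was 1.50%.

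Glra2 encodes the alpha subunit that is prominent in the embryonic and newborn nervous system. Its span on the X chromosome runs from 165129017 to 165327867, and at 199 kb it is of nearly the same length as Glra3. The closest peak, at chrX:161375560-161375960, was 3.75 Mb below it, with spans of 25 other protein-coding genes in between. No peak was listed above Glra2 on the chromosome. Of all protein-coding genes, 3.07% had their closest peak at least as far away. Peaks were sparse on the X chromosome, where 23 of 966 protein-coding genes (2.38%) had one in reach, compared with 91 of 1043 (8.72%) on chromosome 8 and 152 of 1609 (9.45%) on chromosome 11. Whether this chromosome-wide sparseness has a part in the absence of a peak at Glra2 was not tested.

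Glrb encodes the only beta subunit of the glycine receptor. It lies on chromosome 3 from 80843598 to 80913660, on the minus strand, and is 70.1 kb long. Its closest peak, at chr3:80802805-80803205, was 40.6 kb below its lower end, which is the 3' side, and 111 kb from its start. That peak lay at another transmitter receptor gene: it was inside the span of Gria2, which encodes an AMPA-type glutamate receptor subunit, and its midpoint was 170 bp upstream of the annotated Gria2 start in the promoter table. On the other side of Glrb the next peak was 1499 kb away. The distance of 40.6 kb is rather short for this list, since 85.7% of protein-coding genes had their closest peak at least as far off. The median distance over all of them was 298 kb, and 16.2% had a peak in the span or within 50 kb.

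The sequence under this peak shows what the element looks like where it is present. The following stretches are the 250 bases before the annotated start of Gria2 (chr3:80802836-80803085, minus strand), of Glrb (chr3:80913661-80913910, minus strand) and of Glra3 (chr8:55940168-55940417, plus strand), from RefSeq on GRCm38.p6, written 5′ to 3′ in the direction of the gene. They are shown because Gria2 has the peak closest to Glrb over its promoter, Glrb has no peak, and Glra3 has a peak that begins just after this stretch. Capitals mark a match to the RE1 element with at most 4 mismatches.
Gria2: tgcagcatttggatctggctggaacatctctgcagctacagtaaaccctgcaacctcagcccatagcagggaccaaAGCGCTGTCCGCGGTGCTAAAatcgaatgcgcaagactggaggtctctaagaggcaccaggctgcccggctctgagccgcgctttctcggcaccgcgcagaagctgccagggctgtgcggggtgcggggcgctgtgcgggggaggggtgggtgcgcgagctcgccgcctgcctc
Glrb: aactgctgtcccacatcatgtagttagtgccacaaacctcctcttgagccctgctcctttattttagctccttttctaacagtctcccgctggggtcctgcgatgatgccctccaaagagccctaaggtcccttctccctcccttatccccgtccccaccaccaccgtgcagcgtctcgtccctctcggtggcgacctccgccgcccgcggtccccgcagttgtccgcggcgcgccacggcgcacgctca
Glra3: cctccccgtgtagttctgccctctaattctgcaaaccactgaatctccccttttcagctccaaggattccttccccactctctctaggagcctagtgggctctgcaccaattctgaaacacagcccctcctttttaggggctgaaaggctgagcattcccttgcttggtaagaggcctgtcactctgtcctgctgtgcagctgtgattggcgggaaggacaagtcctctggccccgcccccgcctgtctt

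The element searched for has 21 positions: the left part TTCAGCACC, 2 bases of any kind, and the right part GGACAGCGC with a final C, so that 19 bases are fixed. Both strands of 32851 promoter stretches of 300 bases (250 before and 50 after a start) were searched. In the Gria2 promoter the element was found on the strand opposite to the gene, at chr3:80802989-80803009, with 2 mismatches, C3T and C21T, counted from the 5′ end of the element. Its centre was 6 bp from the peak midpoint. Only 0.0304% of all promoter stretches held a match as close. The sequence at this place, and the closest stretches in the Glrb and Glra3 promoters, each read in the direction of the element, were as follows.
Gria2: TTTAGCACCGCGGACAGCGCT
Glrb: TGGCGCGCCGCGGACAACTGC
Glra3: TTCAGCTCCAAGGATTCCTTC
The Glrb stretch had 7 mismatches and the Glra3 stretch 6. Matches that close or closer were held by 36.4% and 8.78% of all promoter stretches, so neither stands out. The Glra3 stretch kept the left part with 1 mismatch (A7T), and it lay outside the peak. A left part with at most 1 mismatch was held by 8.25% of all promoter stretches, and such a right part by 3.26%. The Glra2 promoter held both parts with 1 mismatch each, and the Gabrg1 promoter the right part, though neither gene had a peak in reach. In Glra2 these parts lie side by side in the order of the element, on the strand opposite to the gene. They have 1 base between them in place of 2, so the search with its fixed gap did not count them as an element. How many promoter stretches hold both parts with such a gap was not counted.

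Of the 8 genes, 7 had entries in the promoter table, with 10 annotated starts between them. Glra1 was the one without an entry. None of the 10 stretches overlapped a peak, and none held the element, with its fixed gap of 2 bases, with at most 4 mismatches. The closest matches, with 6 mismatches, were those of Glra2, Glra3 and Gabrg1. Among all promoter stretches, 75 (0.228%) held the element, 18 of the 145 that overlapped a peak (12.4%) and 57 of the 32706 that did not (0.174%). These letters in a window of 300 bases are a description only: the sequence under the Glra1 and Glra3 peaks themselves was not examined here.

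The beta subunits of the GABA-A receptor form the GABA site together with the alpha subunits. Gabrb1 on chromosome 5 runs from 71657921 to 72149572 and is 492 kb long, with 2 annotated starts. Its closest peak, at chr5:71127885-71128285, was 530 kb away on the upstream side, and Cox7b2 and the GABA-A alpha subunit gene Gabra4 lie between. On the other side the next peak was 1498 kb away. Gabrb2, which encodes the beta subunit of the most common receptor type in the adult brain, runs from 42419515 to 42632591 on chromosome 11 and is 213 kb long, with 3 annotated starts. Its closest peak was 420 kb away, also upstream, and on the other side there was none for 2355 kb.

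Of the gamma subunit genes, Gabrg1 lies on chromosome 5 from 70751047 to 70842617, on the minus strand, and is 91.6 kb long. Its closest peak was 285 kb upstream, and it was the same peak at chr5:71127885-71128285 that was closest to Gabrb1. Below Gabrg1 no peak was listed for 2777 kb. Gabrg3 on chromosome 7, from 56716463 to 57387215 on the minus strand, is the longest of the 8 genes with 671 kb. Its closest peak was 360 kb upstream, and below the gene none was listed for 5095 kb. Each of the 4 GABA-A genes had 1 peak within 1 Mb of its span, and none had one within 100 kb. These distances are near the middle of the list as a whole: 34.7 to 51.2% of protein-coding genes had their closest peak at least as far away, and the median distance over all of them was 298 kb.

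Most GABA-A subunit genes lie in clusters that arose by duplication, so the peaks near them can be shared. The chromosome 5 cluster holds Gabrg1, Gabra2, Gabra4 and Gabrb1 in 1399 kb, and it contained 1 peak. That peak, the closest one of Gabrg1 and Gabrb1 alike, lay in the gap between Gabra2 and Gabra4, 32.2 kb from the nearer gene, Gabra2. The X-linked cluster of Gabre, Gabra3 and Gabrq (586 kb) and the pair Gabrr1 and Gabrr2 on chromosome 4 (106 kb) contained none. The surroundings of Gabrb2 and Gabrg3, which also lie near other subunit genes, are not described here, so these counts do not cover all the clusters of the family.

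**Figure D2:**
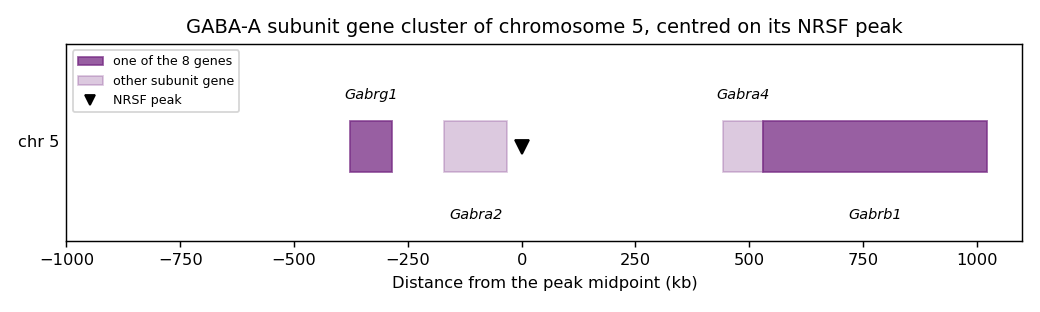
The GABA-A gene cluster of chromosome 5, drawn in kb from the midpoint of its peak (triangle); dark bars are Gabrg1 and Gabrb1, pale bars Gabra2 and Gabra4. The only peak of the cluster lies between genes, 32.2 kb from Gabra2, 285 kb from Gabrg1 and 530 kb from Gabrb1.

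Set side by side, 2 of the 4 glycine genes and 0 of the 4 GABA-A genes had a peak, with a median distance from the span to the closest peak of 20.3 kb and 390 kb. The glycine genes themselves were split, with Glra1 and Glra3 at 0 and Glra2 at 3.75 Mb, farther than any of the 4 GABA-A genes. The GABA-A genes lay within a narrower range, 285 to 530 kb. No test was made of this difference, since the genes were listed with results of these data known and neighbours in a cluster share peaks. The GABA-A genes are longer by the median, 352 kb against 142 kb, though Gabrg1, at 91.6 kb, is shorter than Glra1, Glra2 and Glra3. The 4 GABA-A spans add up to 1467 kb with no peak, and the 4 glycine spans add up to 553 kb with 2 peaks. Over all gene spans there were 1.14 peaks per Mb. Over the spans of genes of 200 kb and over, the class of 3 of the 4 GABA-A genes, there were 0.835 per Mb. No expected count is drawn from these densities, since peaks are not spread evenly over spans: both glycine peaks lay within 1 kb of an end. Longer genes were more often met by a peak: the share was 5.11% for genes under 20 kb, 7.82% from 20 to 100 kb, 13.3% from 100 to 200 kb and 24.9% for genes of 200 kb and over. Gabrb1, Gabrb2 and Gabrg3 belong to this last class, in which 743 of 990 genes had no peak.

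**Figure D3:**
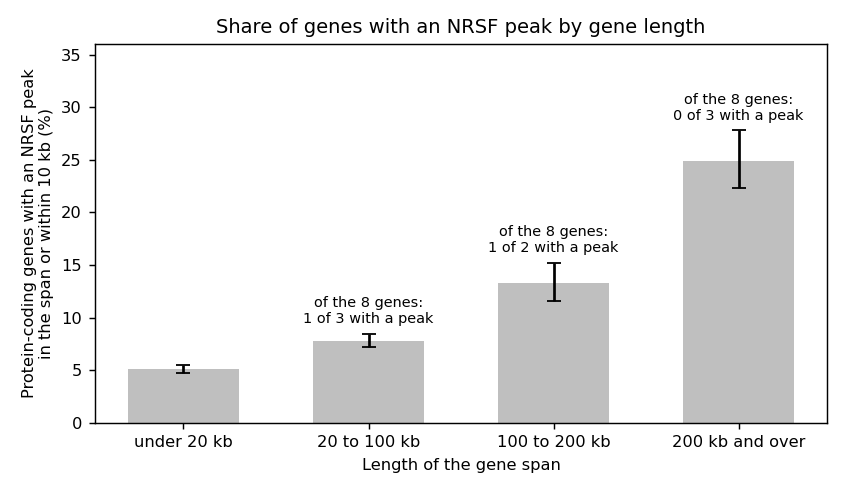
Share of protein-coding genes with an NRSF peak in the span or within 10 kb, by class of gene length (bars from 0, in percent; error bars are exact 95% binomial intervals), with the count of the 8 genes that had a peak in each class that holds any of them. The share rises from 5.11% to 24.9%, while the 2 genes with a peak, Glra1 and Glra3, are in the classes of 20 to 100 kb and 100 to 200 kb.

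Further subunit genes were examined in the same way. They do not make up the whole GABA-A family, so no share is given for it, and 0 of 4 does not stand for the family. Gabrd, which encodes the delta subunit of extrasynaptic receptors, had 1 peak, at chr4:155397505-155397905, inside its span and 393 bp from its upper end, where the span of Cfap74 overlaps it. Its peak thus lay within 1 kb of an annotated end, as those of Glra1 and Glra3 did. The fifth glycine receptor gene, Glra4, had its closest peak 7.12 Mb away on the X chromosome, so that 2 of all 5 glycine genes had a peak (40.0%, beside 7.49% of all protein-coding genes). The alpha genes Gabra2, Gabra3, Gabra4, Gabra5 and Gabra6 had their closest peak 32.2 kb to 1213 kb away, and the rho genes Gabrr1, Gabrr2 and Gabrr3 158 to 531 kb away. None of the 5 subunit genes on the X chromosome, which are Glra2, Glra4, Gabra3, Gabre and Gabrq, had a peak in reach.

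**Figure D4:**
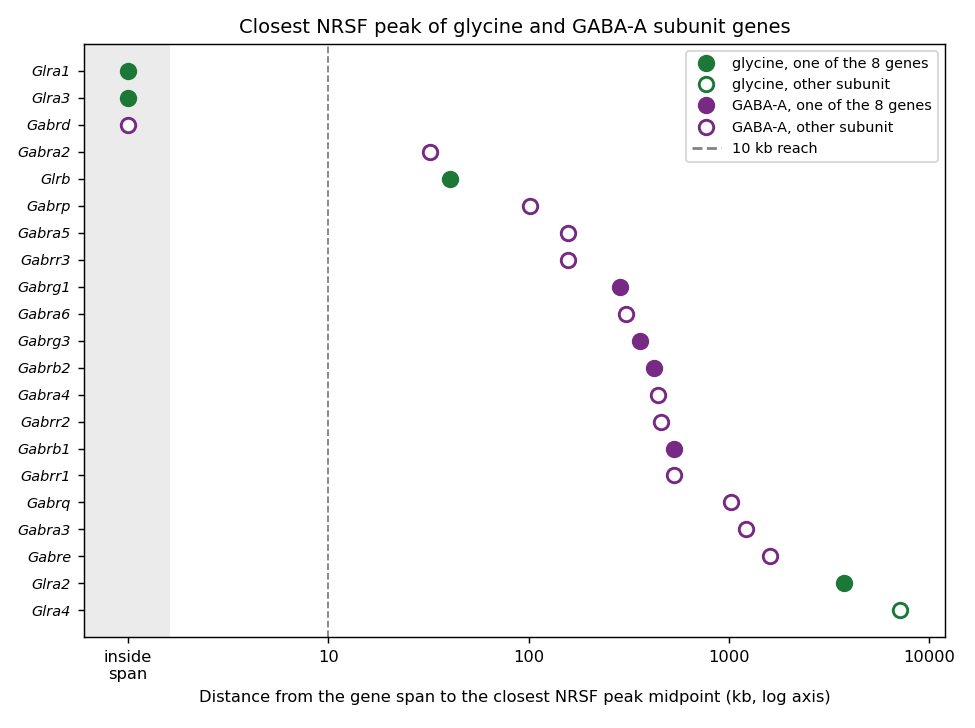
Distance from the span of each of 21 subunit genes to the midpoint of its closest NRSF peak, in kb on a log axis; genes with a peak inside the span are placed in the grey band, and the dashed line marks the 10 kb reach. Filled points are the 8 genes described here. Glra1, Glra3 and Gabrd lie in the grey band, and the next genes follow at 32.2 kb (Gabra2) and 40.6 kb (Glrb).

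A list of 27 other genes of inhibitory synapses covered scaffolds and partners of these receptors, transporters and enzymes of glycine and GABA, chloride transporters and GABA-B receptors. Of these, 8 had a peak (29.6%, beside the same 7.49%). On the glycine side, Slc6a5, the neuronal glycine transporter GlyT2, had a peak at chr7:49910410-49910810, 311 bp downstream of an annotated start. The Glra3 peak was also downstream of a start, at 357 bp. Slc6a5 has 2 annotated starts, however, and its peak was 3626 bp from the nearer end of its span. It was thus not within 1 kb of an annotated end, as the Glra3 peak was. Among all 237 genes of the promoter table with a peak midpoint within 1 kb of a start, 139 had it downstream (58.6%), so this side is the more frequent one in general. The glial transporter gene Slc6a9 (GlyT1) had no peak within 10 kb, its closest being 24.3 kb away. Gphn, which encodes gephyrin, the anchor of the beta subunit, had its closest peak 642 kb away.

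Among partners of GABA-A receptors, Iqsec3, an exchange factor of inhibitory synapses, had a peak 423 bp downstream of its start, and Lhfpl4, a transmembrane protein that carries GABA-A receptors to synapses with neuroligin-2, had one 1459 bp downstream. Slc12a5, the neuronal chloride extruder KCC2, had 3 peaks inside its span, the most of any gene in these lists. Gad1, one of the 2 GABA-synthesising enzymes, had a peak 1588 bp outside its span, and Gad2, the other, had its closest peak 237 kb away. The Gad2 promoter stretch held the RE1 element with 4 mismatches. Slc6a11, a GABA transporter, had a peak 56074 bp inside its nearer end. Gabbr2, a GABA-B receptor subunit, had one 1326 bp outside its span, and Abat, which breaks GABA down, had one 8969 bp outside. The other 19 genes, among them Nlgn2, Slc32a1 and Gabbr1, had no peak in reach.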

How the data were processed

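The values the authors deposited are positions of peaks, 1 list per species, with no score, signal or value per replicate. Per the submitters' processing notes, Bowtie 0.12.8 and MACS 1.4.2 were used and mm10 (GRCm38) is among the builds. The sources used here do not state the peak threshold or how the 2 replicates were joined. RefSeq annotation on GRCm38.p6, whose chromosomes are those of mm10, gave the gene spans. Strands, starts and sequences were read from a RefSeq promoter table on that build, which had entries for 7 of the 8 genes. Exons were not used here. Distances run from the peak midpoint to the gene span. Counting was checked on planted peaks. No test over samples is possible with 1 list, so counts are set beside the share over all protein-coding genes. Some subunit genes of the list are not reported here. The 8 genes and the lists of subunits and partners were chosen with earlier results of these data known. Named were the 8 genes, listed genes with a peak, and genes closer than one of the 8 to its peak. Slc6a9, Gphn, Gad2, Nlgn2, Slc32a1, Gabbr1, Glra4, Gabrr3 and Cfap74, and the remaining cluster genes, were named after their values were seen. Intervals are exact (Clopper-Pearson). Python 3.11.15, numpy 2.4.6, scipy 1.17.1 and matplotlib 3.10.9 were used.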

Additional observations from a re-analysis of the deposited data

How the results depend on the processing

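The count of genes with a peak was recomputed for gene spans only, for reaches of 1, 5, 50 and 100 kb, for any base of a peak, for gene ends only, and with each peak given to the gene with the nearest end. Glra1 and Glra3 had a peak under each of these, and Glrb was added at 50 and 100 kb, which made 3 of 8. None of the 4 GABA-A genes had one under any of them. Most of these outcomes were fixed by the positions given above and are no separate check. The Glra1 and Glra3 peaks lie in the spans, 253 and 357 bp from an end, and no GABA-A gene had a peak closer than 285 kb. The share of all protein-coding genes moved with the reach, from 7.49% to 4.44% with spans only, 5.0% at 1 kb, 16.2% at 50 kb and 25.4% at 100 kb, and it was 5.02% over all 49943 annotated genes. None of the 10 promoter stretches, which cover 7 of the 8 genes and not Glra1, held the RE1 element with at most 5 mismatches either. Its absence at 3 mismatches follows from that at 4. These counts hold for the fixed gap of 2 bases only. No paired analysis was possible because the 2 replicates share 1 peak list. For the same reason no replicate could be left out. Peaks too weak for the authors' threshold are not in the list, so a gene without a listed peak is not shown to be free of NRSF.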
